A study of Drosophila melanogaster with 596 samples.

Results

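The proteins of the small subunit of the cytosolic ribosome were followed through the female head transcriptome of Drosophila melanogaster. The set of 36 genes was fixed by name: genes of the RpS series and stubarista (sta), which encodes the protein called RpSA in other animals. Of these, 32 were in the table, in 39 of its 11064 transcript rows and among 7422 genes in all. The other 4, among them RpS5b (CG7014), RpS10a (CG12275) and RpS28b (CG2998), were not analysed here. The 32 genes were spread over 6 chromosome arms, with 8 on X, 5 on 2L, 7 on 2R, 3 on 3L, 8 on 3R and 1, RpS3A, on the fourth chromosome.

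Each sample was the heads of females 3 to 5 days old, up to about 300 pooled, from the F1 of a cross between a pair of recombinant inbred lines (RILs) of the Drosophila Synthetic Population Resource. A pA mother and a pB father each carried a mosaic of inbred founder genomes, so every F1 held a founder haplotype of each population. Of the 596 crosses 63.4% were of pA1 by pB2 and 36.6% of pA2 by pB1, each with a single set of values and no treatment, so the variation among crosses was what could be measured. The females were not collected as virgins, and whole heads hold nervous tissue, eye, fat body, muscle and other cells together, in which fewer cells of a type and less RNA per cell cannot be told apart. The deposited value is a score: a transcript's array signal set to normal quantiles, which the authors corrected for subpopulation and for 10 principal components before ranking the residuals onto normal quantiles once more. A score of 0 is the middle of the crosses and 1 is about 1 SD. No expression level remains, so genes cannot be ranked by abundance and mean levels cannot be compared between the subpopulation crosses.

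A ribosome translates messenger RNA with a small subunit, which binds the message and reads its codons against transfer RNA, and a large subunit, which joins amino acids. In eukaryotes the small subunit is a single RNA with one copy of each of its proteins, arranged as a head and a body with a platform, and the message runs through the neck between them. A fly that lacks one copy of many of these genes shows the Minute phenotype of slow development and thin bristles. Ribosomal protein genes are among the most highly transcribed genes of most cells, and their products are needed in equal numbers in each subunit.

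Across the 596 crosses the small subunit genes rose and fell together. Pearson's r was positive in 489 of the 496 pairs that the 32 genes form, with a median of 0.287, quartiles of 0.202 and 0.358, and a range of -0.0468 to 0.687. Of all pairs of genes in the table, the median r was 0.00327 and the quartiles were -0.0513 and 0.0589. With two-sided p-values from the t distribution and Benjamini-Hochberg adjustment over all 27539331 gene pairs, 459 small subunit pairs (92.5%) were positively correlated at an adjusted p under 0.05, where 11.8% of all gene pairs were. None of the 496 was negatively correlated, with or without adjustment, where 9.56% of all gene pairs were after it, and the adjusted threshold lay at an r of 0.105 in either direction. In all, 66.7% of the pairs were above the 99th percentile of all gene pairs, an r of 0.233. Spearman's rho had a median of 0.286 over the same pairs. The crosses carry no label of slide or date, so a batch other than the subpopulation could not be examined.

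**Figure D1:**
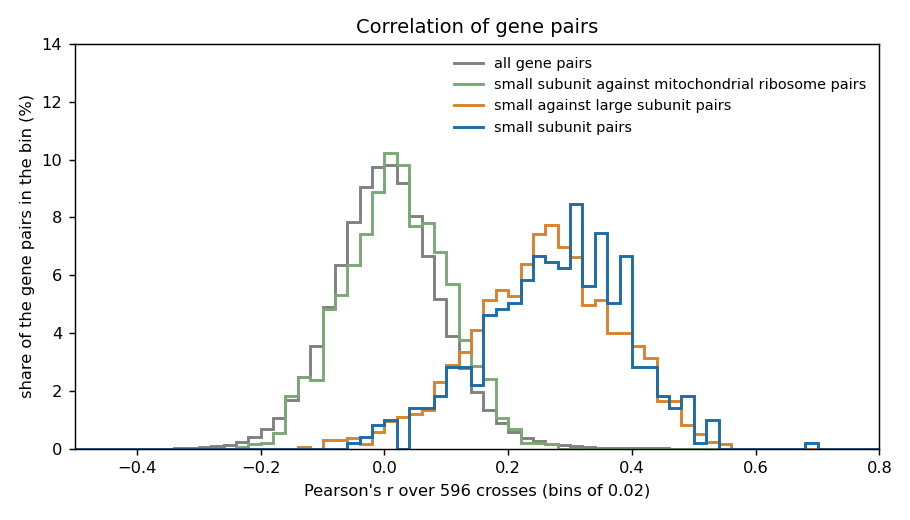
Share of gene pairs (percent) in bins of 0.02 of Pearson's r over 596 crosses, for all gene pairs, pairs of a small subunit and a mitochondrial ribosome gene, pairs of a small and a large subunit gene, and pairs of small subunit genes. The small subunit pairs centre on a median r of 0.287 and all gene pairs on 0.00327.

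The same pattern was present in each subpopulation cross. The median r of the 496 pairs was 0.277 for pA1 by pB2 and 0.315 for pA2 by pB1, and 300 pairs had the higher r in pA2 by pB1. By chromosomal position the median r was 0.290 for the 90 pairs on the same arm and 0.285 for the 406 pairs on different arms. The median score of all genes on each array correlated with single members between -0.168, for RpS2, and 0.246, and with the mean of the members at 0.0246.

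The 12 genes of the head and the 20 of the body and platform had similar medians. Among head genes 60 of 66 pairs were called and the median r was 0.295, within the body 93.7% of 190 with a median of 0.264, and between head and body 92.1% of 240 with a median of 0.299. These groups share genes, and their difference was not tested.

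RpS16 (CG4046), whose tail in the head reaches the transfer RNA being read, followed the others most closely: its median r with the other 31 members was 0.366, and all 31 were called. RpS27 (CG10423), a zinc-binding protein of the platform, had a median r of 0.357 with 30 called, and RpS30 (CG15697), made as a fusion with a ubiquitin-like protein, 0.355 with 31 called. Against the mean of the other members these genes had r of 0.667, 0.649 and 0.629, where the median member had 0.516. Every partner was also called for RpS18, RpS9, RpS21 and RpS15, of which RpS18 lies at the contact of the head with the large subunit and RpS9 near the message entry.

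Among the other head genes the median r was 0.349 for RpS20 and 0.349 for RpS18, which both touch the RNA of the head, and 0.346 for RpS5a (CG8922), whose copy RpS5b is known from the germline. RpS15, whose tail reaches the decoding site, had 0.311, RpS10b (CG14206) 0.310 and RpS19a, needed to mature the RNA of the subunit, 0.309. RpS29 had 0.296, RpS3, which also guards the message entry, 0.289, and RpS27A, made as a fusion with ubiquitin, 0.285. The head genes that stood lowest were RpS12 (CG11271), known in flies for its part in cell competition between Minute and normal cells, at 0.214, and RpS25 at 0.128.

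In the body the values were 0.343 for RpS9, 0.340 for RpS21 and 0.330 for sta, of which RpS21 and sta lie side by side in the subunit. RpS24 had 0.298, RpS7 0.296 and RpS23, a protein of the decoding site, 0.295. RpS6, the substrate of S6 kinase in growth signalling, had 0.269. RpS13 had 0.255, RpS26, at the message exit, 0.244, and RpS2, at the message entry, 0.232. RpS4 (CG11276) stood at 0.200 and RpS3A (CG2168) at 0.143.

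**Figure D2:**
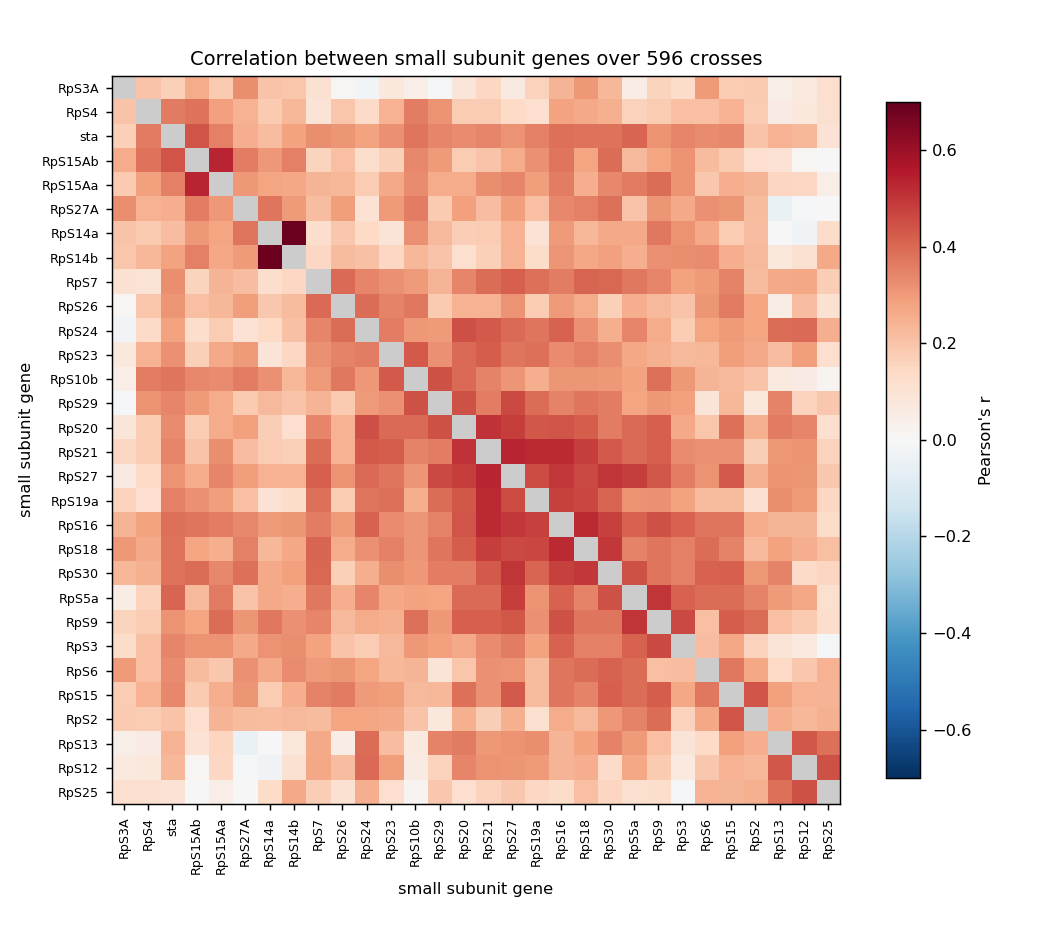
Pearson's r over 596 crosses for each pair of 30 of the small subunit genes, ordered by average linkage on 1 minus r, with colour from blue (negative) over white (0) to red (positive). Most cells are red, the darkest is RpS14a with RpS14b at 0.687, and the palest cells lie in the rows of RpS3A, RpS12, RpS13, RpS25 and a few others.

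The pairs that were not called were concentrated in a few genes. Of the 37, 31 held at least 1 of RpS3A (21 of 31 partners called), RpS13 (22), RpS12 (24) and RpS25 (24). These 4 genes were picked out after their values were seen. Among the other 28 genes, all pairs but 6 were called (98.4%), with a median r of 0.312.

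The closest pair was RpS14a (CG1524) with RpS14b (CG1527), the neighbouring copies on X of a platform protein at the message exit. Their r was 0.687 (95% interval 0.643 to 0.728) and rho 0.697, each with a permutation p of 1e-05, which is the smallest that 100000 resamples can give and remained 1e-05 after adjustment over the 2 pairs of gene copies. Within pA1 by pB2 r was 0.707, within pA2 by pB1 0.652, and without the 2 crosses farthest in RpS14a 0.679. RpS15Aa (CG2033) on X and RpS15Ab (CG12324) on 2R, copies of another body protein, had r = 0.533 (0.473 to 0.588) and rho 0.510 with the same permutation p, 0.548 and 0.511 in the subpopulation crosses, and 0.534 without the 2 farthest. Probes were chosen by the study as exact matches to coding sequence and were not required to be unique, so copies may share probes. How much of either r comes from shared probes was not tested.

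The other pairs with the highest r joined genes on different arms or apart on one arm. RpS21 and RpS27 had r = 0.534 (0.474 to 0.589), RpS16 and RpS21 0.525 (0.464 to 0.580), and RpS16 and RpS18 0.524 (0.463 to 0.580). Each had a permutation p of 1e-05 for r and for rho, 2e-05 after adjustment over the 10 pairs named at both ends, and their r within a subpopulation cross ran from 0.473 to 0.557. Their Spearman's rho was 0.547, 0.532 and 0.506. Leaving out the 2 crosses farthest in the first gene gave 0.555, 0.525 and 0.523.

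At the other end, RpS13 and RpS27A had r = -0.0468 (-0.127 to 0.0336) with a permutation p of 0.252. RpS12 and RpS14a had -0.0241, RpS3A and RpS24 -0.0214, RpS12 and RpS27A -0.0158, and RpS3A and RpS29 -0.0151, with permutation p from 0.560 to 0.715 and an adjusted p of 0.715 for each. For rho the permutation p of these 5 pairs ran from 0.522 to 0.982, and without the 2 farthest crosses r ran from -0.0410 to -0.00387. None of the 5 was called, and no interval excluded 0. The upper ends of the intervals, at most 0.0653, all lay below the median r of the members. Pairs at both ends were picked by their r, and neither the intervals nor the permutation p allow for that choice. The place of these 5 below the median is therefore a description. Within the subpopulation crosses r of these pairs ran from -0.140, for RpS3A and RpS29 in pA2 by pB1, to 0.0649 for the same genes in pA1 by pB2.

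RpS12, RpS13 and RpS25, which had 24, 22 and 24 of 31 partners called, each had the highest r among members with another of the 3. The r of RpS12 with RpS25 was 0.444, of RpS12 with RpS13 0.437, and of RpS13 with RpS25 0.385, with adjusted p of 5.31e-27, 4.99e-26 and 1.17e-19 over all gene pairs. These pairs were chosen after their values were seen. RpS12 is on 3L, RpS13 on 2L and RpS25 on 3R. RpS24, on 2R, joined them: the 6 pairs among the 4 genes had r from 0.255 to 0.444, median 0.395, all called, and medians of 0.393 and 0.400 in pA1 by pB2 and pA2 by pB1. RpS14a, RpS14b, RpS15Ab and RpS27A formed a contrasting set, with r from 0.296 to 0.687 and a median of 0.356. Between the 2 sets the 16 pairs had r from -0.0468 to 0.267, median 0.0904, and 6 were called.

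The 2 sets are the ends of the second principal component of the 32 genes, which is how they were chosen, so they are a description without a test. The first component, on which all 32 genes had a loading of the same sign, held 31% of the variance, 30.2% among pA1 by pB2 crosses and 33.3% among pA2 by pB1, where an even split over 32 components gives 3.13%. The second held 7.45% and the third 5.39%. Loadings on the first ran from 0.0878 for RpS3A to 0.226 for RpS16.

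By cross, the mean score of the 32 genes ran from -1.81 over a median of 0.00242 to 1.55, with an SD of 0.540, or 0.534 and 0.550 within pA1 by pB2 and pA2 by pB1. Uncorrelated genes of the same spread would give an SD of 0.174. The subpopulation crosses overlapped almost completely, from -1.81 to 1.55 in pA1 by pB2 and from -1.47 to 1.40 in pA2 by pB1. In 56 crosses at least 29 of the 32 genes lay on the same side of 0, 24 of them above and 32 below.

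The cross with the highest mean, of RIL 11133 by RIL 22133, had 31 genes above 0, with RpS26 at 3.15 and only RpS3A below, at -0.129. The cross 12099 by 21099 had a mean of 1.40 and all 32 genes above 0, the lowest being RpS13 at 0.217. The lowest mean was that of 11350 by 22350, where all 32 genes were below 0, between -2.81 for RpS18 and -0.544 for RpS2. This is one of the crosses that the study prepared a second time, and it has a single set of values here. In 11189 by 22189 all 32 were below 0 as well, with a mean of -1.50. The mean of the large subunit genes in these 4 crosses was 1.26, 1.59, -1.46 and -1.36, and the median over all genes on their arrays was -0.0954, -0.0332, -0.213 and -0.166.

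The large subunit moved with the small one. All 42 genes of the RpL series with RpLP0 and RpLP1 that were in the table were set against the 32 small subunit genes, and 1218 of the 1344 pairs (90.6%) were positively called with a median r of 0.262, next to 11.8% of all gene pairs. A single pair was negatively called, RpS12 with RpL7A at r = -0.135. RpS16 and RpS9 were called with all 42 large subunit genes, RpS12 with 30 and RpS25 with 18. From the other side, 8 large subunit genes were called with all 32 members, while RpL5, which carries the small ribosomal RNA of the large subunit together with RpL11, was called with 17.

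The mean score of the small subunit and that of the large subunit had r = 0.915 and rho = 0.901 over the crosses, with r = 0.924 for pA1 by pB2 and 0.901 for pA2 by pB1. This is a description of both sets and carries no p. When the large subunit mean was taken out of each member by regression, a step added once those values were known, the median r of the 496 small subunit pairs was 0.0344 and 63.9% of the pairs were still positive in sign. The pairs then ran from -0.305 to 0.607. The highest was again RpS14a with RpS14b, at 0.607, followed by RpS12 with RpS25 at 0.405, RpS15Aa with RpS15Ab at 0.382, RpS12 with RpS13 at 0.366 and RpS13 with RpS25 at 0.336.

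**Figure D3:**
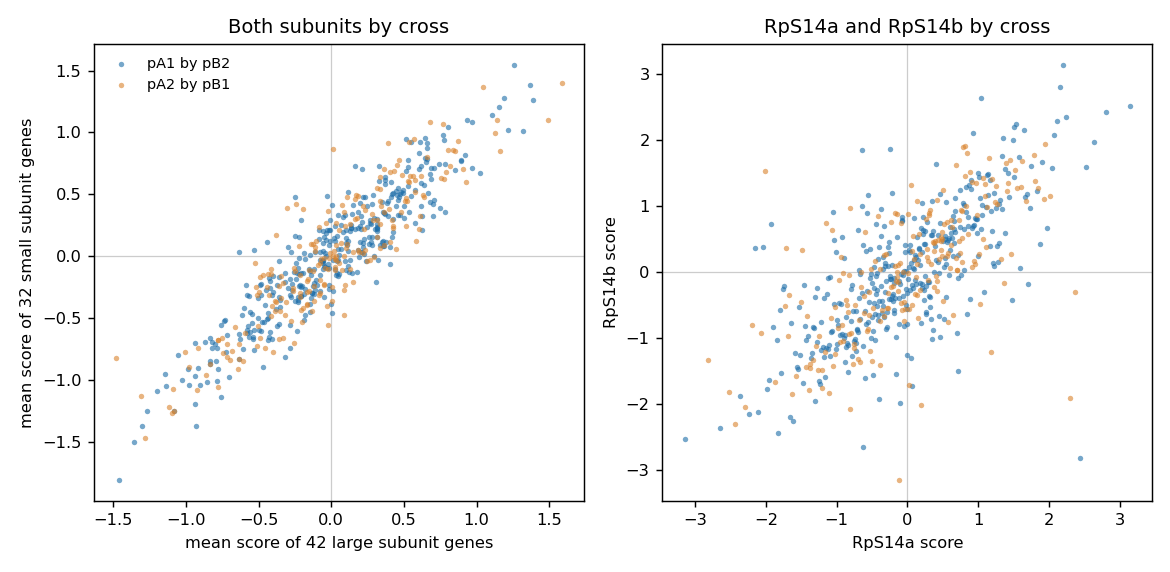
Left, mean score of 32 small subunit genes against mean score of 42 large subunit genes, a point for each of 596 crosses; right, RpS14b score against RpS14a score, with pA1 by pB2 in blue and pA2 by pB1 in orange and scores in normal-quantile units. The points follow r = 0.915 on the left and r = 0.687 on the right, and both colours cover the same range.

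Seen from single members, the nearest genes of the whole transcriptome were mostly ribosomal. Among the 50 genes with the highest positive r to a member, the number of ribosomal protein genes ran from 9 for RpS25 to 47 for RpS16. The median was 39, and the number was at least 25 for 28 of the 32 members. Ribosomal protein genes of both subunits were 74 of 7422 genes, or 0.997%. The exceptions were RpS13 with 23, RpS12 with 15, RpS3A with 13 and RpS25 with 9. For 28 members the nearest gene outside the small subunit was a large subunit gene, and for 6 of these it was RpL17.

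For RpS16 the nearest gene outside the set was RpL37-1 (r = 0.493), for RpS27 RpL17 (0.545) and for RpS30 RpL30 (0.517). RpS15Aa and RpS15Ab were both nearest to RpL37-1, at 0.449 and 0.466. RpS14a was nearest to RpL13 (0.430) and RpS14b to Rack1 (0.440), a scaffold protein bound to the head of the small subunit that is not named as an RpS protein. RpS10b and RpS26 were nearest to RpL17, at 0.464 and 0.421, and RpS5a to eEF1gamma (0.441), a subunit of the complex that recharges the elongation factor carrying transfer RNA. RpS13 was nearest to RpL13A (0.434) and RpS4 to RpL10 (0.380).

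The genes around RpS3A and RpS25 differed from these. RpS3A was nearest to RpL5 (r = 0.467, rho 0.445), and its next correlates outside the ribosome included the elongation factors eEF2 (0.416) and eEF1alpha1 (0.396), which move the ribosome along the message and bring transfer RNA. These too were chosen after their values were seen. RpS25 had RpS12 and RpS13 as its first correlates and then cni (0.352), a cargo receptor of the secretory pathway, and Tak1 (0.350), a kinase of immune signalling.

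Against the mean of the 32 members, the 10 genes outside the set with the largest absolute r were all large subunit genes, from RpL17 at 0.628 and RpL34b at 0.608 to RpL27 at 0.565. Of the first 40 such genes 33 were of the large subunit list. The first from outside it was Rack1, in place 15 with r = 0.535 and 29 members called. Nacalpha and bic, the subunits of the complex that binds new chains as they leave the ribosome, had 0.470 and 0.454, and eIF3k, a subunit of the initiation factor that binds the small subunit, had 0.454. Each of these was called with 30 members. MsrA, which repairs oxidised methionine, stood at -0.376 and was negatively called with all 32. These genes outside the ribosome were chosen after their values were seen.

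The closest of all the ties to a gene outside the set was that of RpS6 with Rack1, at r = 0.556 (0.498 to 0.609) and rho 0.531, with 0.504 for pA1 by pB2 and 0.652 for pA2 by pB1, a difference that did not pass after adjustment over all gene pairs (adjusted p = 0.282). RpS29 and RpL32 had r = 0.549 and RpS27A and RpL39 0.539. The last pair did differ between the subpopulation crosses, with 0.431 in the former and 0.679 in the latter (adjusted p = 0.0262 by the difference of Fisher z values). It was 1 of 6 among the 1344 small-to-large pairs that did, where 0.164% of all gene pairs did. Of the 6, 2 held RpS13: its r with RpL21 was 0.361 and -0.00690 and with RpL19 0.314 and -0.0163. Another 2 held RpS15Ab and went the other way, at 0.0833 and 0.431 with RpL17 and 0.173 and 0.477 with RpL3. The remaining pair, RpS29 with RpL21, had 0.274 and -0.131 (adjusted p = 0.00732 by the same test).

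The mitochondrial ribosome, which translates the genes of the organelle with its own proteins, lay near the level of all gene pairs. Of 1856 pairs of a member and 1 of 58 mitochondrial ribosomal protein genes, 15.8% were positively and 6.95% negatively called, with a median r of 0.0184. Of all gene pairs 11.8% were positively and 9.56% negatively called, with a median r of 0.00327. Translation initiation factors, 33 genes with symbols that start with eIF, gave 411 positive calls in 1056 pairs (38.9%) and 43 negative, with a median r of 0.0717. Of 25 listed ribosome assembly factors 23 were in the table, and 36.1% of 736 pairs were positively called with a median r of 0.0780. Their ties to the member mean ran from -0.0673 for Ns3 to 0.346 for Non1. Differences between these lists were not tested.

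Marker genes of cell types of the head were set against the members as well. For 7 muscle genes 33.9% of the pairs were positively and 3.57% negatively called, where 11.8% and 9.56% of all gene pairs were, from Act88F at an r of -0.0749 with the member mean to Mlc2 at 0.268. For 4 fat body genes 25% of the pairs were positively and 3.13% negatively called. The r of these genes with the member mean ran from -0.0972 for takeout (to) to 0.261 for Yp3, a yolk protein. Positive and negative calls were made for 31 and 16 of 160 pairs with 5 photoreceptor genes and for 25 and 16 of 160 with 5 neuronal genes, and for 4 and 0 of 64 with 2 glial genes, where the lowest r was -0.102. For 3 haemocyte genes no pair was positively called, at most r = 0.0747 and with none at an unadjusted p under 0.05 either, and 20 of 96 were negatively called. The r of each list's mean with the member mean was 0.194 for muscle, 0.125 for fat body, 0.0637 for photoreceptors, 0.0731 for neurons, 0.0404 for glia and -0.156 for haemocytes. None of the listed genes of the female germline was in the table. The part of these cell types in the correlation among the members was not tested.

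The subpopulation crosses were compared next. For 4 of the 496 member pairs r differed at an adjusted p under 0.05 (difference of Fisher z values, two-sided, adjusted over all gene pairs), where 0.164% of all gene pairs did. All 4 had the higher r in pA2 by pB1, and 3 of them are given here. RpS13 and RpS15Ab had r = -0.0170 for pA1 by pB2 and 0.355 for pA2 by pB1 (adjusted p = 0.0149), RpS15Ab and RpS24 0.0143 and 0.351 (0.0356), and sta and RpS12 0.130 and 0.438 (0.0479). The median r of RpS15Ab with the other members was 0.197 and 0.363. Without adjustment 78 member pairs (15.7%) had a p under 0.05, where 10.4% of all gene pairs did.

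**Figure D4:**
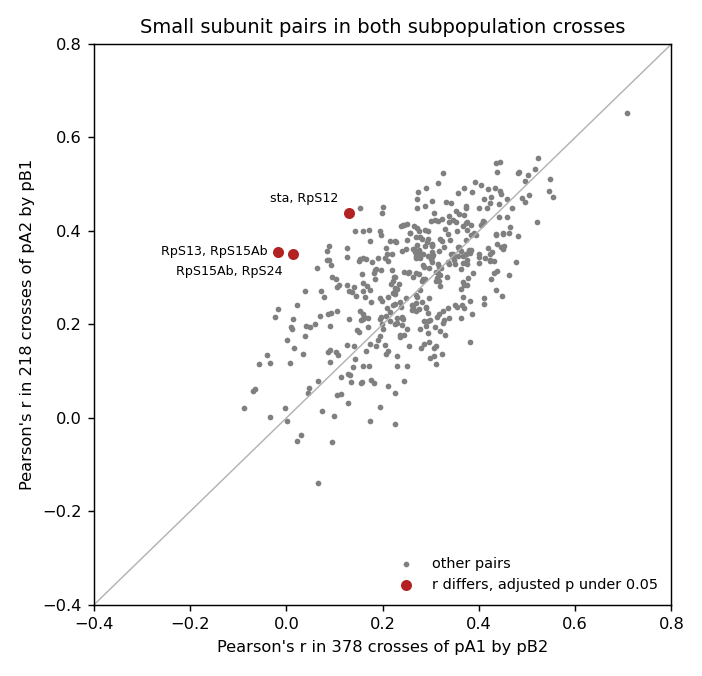
Pearson's r of the 435 pairs among 30 of the small subunit genes in the crosses of pA1 by pB2 (x axis) and of pA2 by pB1 (y axis), with the line of equal values and the 3 pairs that differed at an adjusted p under 0.05 in red. The 3 lie above the line, at r between -0.0170 and 0.130 in pA1 by pB2 and between 0.351 and 0.438 in pA2 by pB1.

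The spread of the scores differed between the subpopulation crosses for 2 of the 32 members, by the Brown-Forsythe test with adjustment over all genes, where 19.3% of all genes passed. RpS7 (CG1883), needed to process the RNA of the subunit, ran from -2.54 over a median of 0.0519 to 2.95 in pA1 by pB2 and from -2.21 over -0.0495 to 1.93 in pA2 by pB1. Its SD was 0.941 and 0.754 (adjusted p = 0.0102; permutation p = 0.000940). RpS15Ab ran from -3.15 over 0.0601 to 3.15 and from -2.52 over -0.0913 to 2.64, with an SD of 1.06 and 0.903 (adjusted p = 0.0471; permutation p = 0.00812). The ranges overlapped widely for both genes, and the larger spread was in pA1 by pB2. No other member had an unadjusted p under 0.05, where 32.1% of all genes had. Mean scores of the members differed between the subpopulation crosses by -0.0216 to 0.0238, since the authors had taken that difference out.

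Several transcript rows were averaged for 4 members, of which 3 are described. RpS7 had the forms PA, PC and PD with identical scores in every cross and PB, which correlated with them at 0.366. The r with the mean of the other members was 0.490 for the first 3 and 0.336 for PB. The forms of sta were PA and PB, again identical, and PD, at 0.652 with them. RpS6 PA and PB had r = 0.518 with each other, and PB followed the other members more closely (0.534) than PA (0.340). Rows with identical scores add no separate measurement.

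Founder haplotypes were set against expression for the members that had a mapped peak among those with founder assignments used here. Assignments for 45 of the crosses, all of pA1 by pB2, were used, and at 1 peak each for RpS13, RpS26 (CG10305) and RpS14b, on the arm of the gene itself, the score was fitted on the founder of the pA and of the pB parent. The peaks had been mapped in these same crosses, so the fits are not an independent sample. Of 1979 peaks fitted in this way for all genes, 40.1% had an adjusted p under 0.05 by the F test, and 1 of the 3 members did.

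For RpS13 (CG13389), on 2L, the 33 crosses with an assignment ran from -2.24 over -0.133 to 2.81. The 11 crosses with founder A5 at the peak had a mean score of 0.806 (SD 0.969) and ran from -0.815 to 2.81. The 9 with A4 had a mean of -1.15 (SD 0.707) and ran from -1.95 to 0.299, and the 9 with A6 a mean of -0.695 (SD 1.06). A1 and A3 were seen in 2 crosses each, at means of 1.15 and -0.777. The crosses with A5 and those with A4 overlapped only between -0.815 and 0.299. Adjusted for the number of terms, founders held 39.5% of the variance (adjusted p = 0.0115 over all 1979 peaks; permutation p = 0.00248, or 0.00744 over the 3 members).

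For RpS26 the founder classes overlapped: the 31 crosses with A4 had a mean of -0.174 (SD 1.05), the 8 with A7 0.204 (SD 0.750) and the 3 with AB8 0.650 (SD 0.799), and the adjusted share of variance was -2.92% (adjusted p = 0.640). For RpS14b the means of 4 pA founders lay between 0.240 and 0.432, those of the pB founders B1, B3, B4 and B6 between -0.0232 and 0.165 and that of the 21 crosses with B7 at 0.659 (SD 1.17), and the adjusted share was -5.50% (adjusted p = 0.728). The same fit for other members at the peak of RpS13 is a description only: the highest adjusted share was that of RpS29, at 36.4%, a gene on 3R.

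**Figure D5:**
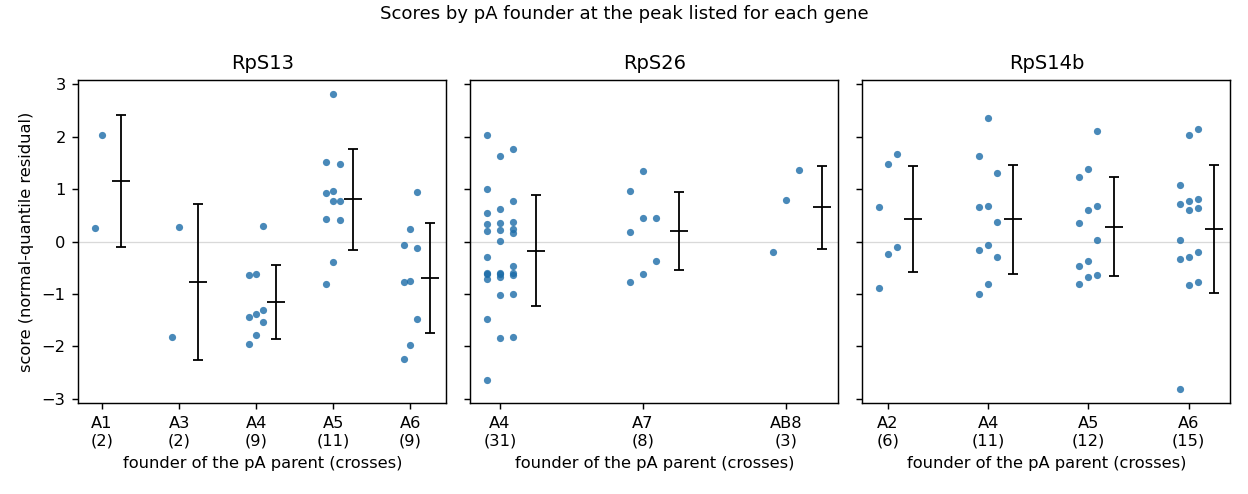
Scores (normal-quantile units) of RpS13, RpS26 and RpS14b by the founder assigned to the pA parent at the peak of each gene, a point for each genotyped cross of pA1 by pB2, with the mean and SD of each founder as bars and the number of crosses in brackets. For RpS13 the A5 crosses (mean 0.806) lie mostly above the A4 crosses (mean -1.15); for RpS26 and RpS14b the founders overlap.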

How the data were processed

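RNA from female heads of 596 crosses was hybridised by the study to NimbleGen arrays. The authors corrected background, normalized and summarised probes with oligo and RMA, kept probes that matched FlyBase coding sequence exactly, removed probes affected by sequence variants and transcripts with fewer than 4 probes, and averaged isoforms whose pairwise r was never under 0.95. Values were ranked onto normal quantiles per transcript, regressed on subpopulation and on the first 10 principal components of the data, and the residuals ranked onto normal quantiles again. The value the authors deposited is therefore a score without a physical unit, between -3.15 and 3.15, with row SDs from 0.983 to 1.01. The number of arrays limits the precision.

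Transcript rows were averaged per gene, and the scores were used with no further correction. Symbols and arms came from the RefSeq gene table of Release 6, which named 7341 of the 7422 genes. Pearson's r was computed for every gene pair over all crosses and within each subpopulation cross, with Benjamini-Hochberg adjustment over all pairs. Named pairs were tested with 100000 permutations. Differences of r used Fisher z values, differences of spread the Brown-Forsythe test, and founder fits least squares with an F test, leaving out founders seen in fewer than 2 crosses and fits on fewer than 20. Founder assignments were used as genotypes for 45 crosses only. Intervals are 95% intervals from Fisher z values. The tests were run first on simulated data with known answers.

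The pairs named are the 5 highest and the 5 lowest r among members and both pairs of gene copies. The members named are the 3 highest and the 3 lowest by median r, every member with a fitted peak and every member of a gene copy pair, each with its nearest gene outside the set, together with the 10 outside genes nearest to the mean of the members. All other names were added after their values were seen. A few genes are counted with the members but not reported here by name. RpL24-like, RpL7-like and RpLP0-like were left out of the large subunit list. Members and gene lists were chosen with earlier results of these data known. Alternatives were rank correlation, each subpopulation cross alone, the first isoform row, the array median taken out, 10 further components removed, and 30 crosses (5%) left out whose array median was farthest from the middle. For spread and founders, alternatives were deviations from the mean, founder classes in at least 3 crosses, and uncertain assignments as a class. The software was scipy 1.17.1, numpy 2.4.6 and pandas 2.3.3 under Python 3.11.15, with figures from matplotlib 3.10.9.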

Additional observations from a re-analysis of the deposited data

Results flagged for a closer look

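Differences in r between the subpopulation crosses, given as r in pA1 by pB2 minus r in pA2 by pB1, were picked out where the test of the difference itself passed after adjustment. They were -0.372 for RpS13 and RpS15Ab, -0.337 for RpS15Ab and RpS24, and -0.308 for sta and RpS12. RpS15Ab, which is in the first 2, also had the larger spread in pA1 by pB2. The role of that spread in the differences was not tested.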

How the results depend on the processing

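The positive calls among small subunit pairs ran from 397 (pA2 by pB1 alone) to 460 (array median taken out) over the alternatives. Calls between small and large subunit genes ran from 939 (pA2 by pB1 alone) to 1224 (rank correlation). The share of all gene pairs positively called changed as well, from 3.48% for pA2 by pB1 alone to 11.6% for the first isoform row. It was 3.92% with 10 further components removed, where 419 small subunit pairs were called. Each count therefore has to be read against the share of its own setting. The median r of small subunit pairs ran from 0.220 (10 further components removed) to 0.315. The r of RpS14a with RpS14b ran from 0.645 to 0.725, and that of RpS15Aa with RpS15Ab from 0.448 to 0.548. One member, RpS13, passed the founder fit under each alternative run, with an adjusted share of variance of 35.4% to 41.1%. The counts that moved were small ones. The 4 member pairs that differed in r between the subpopulation crosses became 1 with rank correlation (sta with RpS12), 1 with 10 further components removed (RpS13 with RpS15Ab) and 7 with 5% of the crosses left out, a number that held all 4 and RpS2 with RpS4, RpS4 with RpS18 and RpS15Ab with RpS20. The 2 members that differed in spread became 1 with 5% of the crosses left out, when RpS15Ab had an adjusted p of 0.134. The cause was not tested. With 10 further components removed the count stayed at 2, with RpS3A (adjusted p = 0.0341) in the place of RpS7 (0.0640).

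These scores keep no signal over background, and each cross has a single set of them. No paired analysis was possible because the subpopulation crosses share no lines or replicate numbers that pair them.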
